A study of Arabidopsis thaliana with 36 samples.

Results

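Casparian strip genes are described here in the roots and leaves of Arabidopsis thaliana, 9 genes out of the 28775 in the table of read counts, picked by their AGI locus identifiers. The 8 described by name are CASP1 (AT2G36100), CASP2 (AT3G11550), CASP4 (AT5G06200), CASP5 (AT5G15290), ESB1 (AT2G28670), MYB36 (AT5G57620), SGN3 (AT4G20140) and PER64 (AT5G42180). RNA sequencing had been carried out on the wild type Columbia-0 and on opt3-2, an insertion line of the iron transporter gene OPT3 that remains viable. Both genotypes were kept 11 days on plates and then 22 days in hydroponic medium with 16 h of light a day, and each RNA sample pooled the roots or the leaves of 3 to 4 plants. The 4 groups, Columbia-0 root, opt3-2 root, Columbia-0 leaf and opt3-2 leaf, held 3 biological replicates each, and every replicate was the sum of 3 sequencing runs. All groups carry the same texts on the medium, which the sample labels call replete and a treatment text describes as containing 20 µM CdCl2 for the last 72 h. Which of these holds was not settled, and no group without that text was available to compare with.

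The Casparian strip is a ring of lignin in the walls between the endodermal cells of the root, and it stops water and ions from passing through the wall between the soil side and the vascular side. CASP proteins are small membrane proteins that assemble as a scaffold where the strip will form. MYB36 is the transcription factor that switches on the scaffold and wall genes in the endodermis, the peroxidase PER64 and the dirigent-domain protein ESB1 act in the wall at that scaffold, and the receptor kinase SGN3 senses whether the barrier is sealed by binding CIF peptides from the stele. Mutants that lack a sealed strip are known for altered mineral content of the shoot.

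The CASP genes are close relatives, and the coding stretch in which they were most alike is printed here because reads shared by paralogs could be counted for the wrong gene. Each of 4 lines gives 60 coding bases in TAIR10.1 from RefSeq, 5′ to 3′ along the coding strand, with capitals where all 5 CASP genes have the same base.
CASP1 (chr2:15160399-15160458, minus strand): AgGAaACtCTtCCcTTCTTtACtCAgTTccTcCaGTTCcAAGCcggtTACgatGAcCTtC
CASP2 (chr3:3638467-3638526, plus strand): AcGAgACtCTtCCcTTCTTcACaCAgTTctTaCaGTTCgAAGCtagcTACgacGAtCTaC
CASP4 (chr5:1877532-1877591, plus strand): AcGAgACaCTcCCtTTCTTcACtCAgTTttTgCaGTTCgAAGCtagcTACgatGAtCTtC
CASP5 (chr5:4967245-4967304, plus strand): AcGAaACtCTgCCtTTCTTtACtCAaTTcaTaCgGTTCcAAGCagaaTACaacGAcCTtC
Even in this stretch 38 of 60 positions were shared, and over the whole alignment of the coding sequences 28.2% of 699 positions were. CASP2 and CASP4 were the nearest pair, with 79.8% identity and a longest identical run of 20 bases, while the other 9 pairs had 50.1% to 63.8% identity. No pair thus had a long identical run in its coding sequence, although the read length and the treatment of reads with several matches were not given in the sources used here.

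In TAIR10.1 all 9 genes are annotated as protein-coding. CASP1 lies at chr2:15159591-15160799 on the minus strand and CASP2 at chr3:3638178-3639348 on the plus strand. CASP4 lies at chr5:1877134-1878324 and CASP5 at chr5:4967011-4968092, both on the plus strand. ESB1 lies at chr2:12300265-12302358 on the minus strand. MYB36 is at chr5:23334767-23336632, SGN3 at chr4:10883921-10888270 and PER64 at chr5:16852628-16854224, all on the plus strand.

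ESB1 stands apart in its annotation. A gene on the opposite strand, AT2G28671, has an exon of 1834 bases that covers 1459 of the 1731 exon bases of ESB1 (84.3%), all but its first exon of 272 bases. The coding sequence of ESB1 begins inside the covered stretch, and its first 60 bases are printed here to mark the place, with the start codon in capitals.
ESB1 (chr2:12301664-12301723, minus strand): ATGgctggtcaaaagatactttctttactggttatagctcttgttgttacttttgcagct
The reads counted for ESB1 were few in every library, 19, 21 and 15 in the Columbia-0 roots, 11, 8 and 14 in the opt3-2 roots, 1, 13 and 6 in the Columbia-0 leaves and 17, 19 and 9 in the opt3-2 leaves. AT2G28671 had 0 reads in all 12 replicates. Among the 507 genes of the table that share 80% or more of their exon bases with another gene, 40.8% had 0 reads in all 12 replicates and the median total was 8 reads. Among the 21235 genes that share no exon base, 10.9% had 0 reads and the median total was 2851. How reads were assigned where genes overlap, and if library strand was recorded, was not given in the sources used here, so the part of this overlap in the ESB1 counts was not tested. The other members share little or nothing: 337 exon bases of SGN3 (7.88%) are shared with AT4G20150 on the opposite strand, and CASP1, CASP5 and PER64 share 49, 4 and 34 bases with neighbours on the opposite strand.

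**Figure D1:**
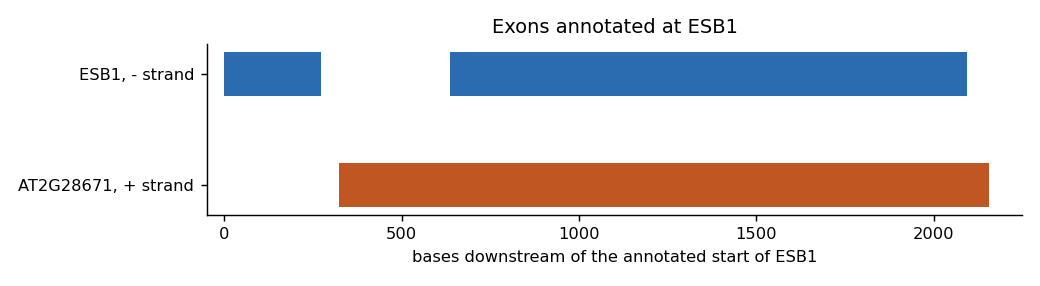
Annotated exons of ESB1 (upper row, minus strand) and of AT2G28671 (lower row, plus strand), drawn to scale as distance in bases from the annotated start of ESB1. The single exon of AT2G28671 covers all of the ESB1 exons except the first 272 bases.

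Counted reads per replicate were 23981444 to 37685493, and opt3-2 leaves were the deepest group. Levels are given as CPM (counted reads scaled by library size with TMM factors, per 1000000 reads), and differences are log2 fold changes ± SE with 95% intervals and adjusted p-values from edgeR's quasi-likelihood test over 21692 genes, called at an adjusted p under 0.05. The tissue labels fitted the marker genes, since 4 leaf markers summed to 49835 to 63554 CPM in leaf libraries and 163 to 368 CPM in root libraries, while 4 root hair markers summed to 86.4 to 158 CPM in roots and 0.282 to 1.54 CPM in leaves. OPT3 reads per replicate in leaves were 2536, 2197 and 2151 in Columbia-0 and 611, 669 and 585 in the mutant, which is -2.40 ± 0.16 on the log2 scale (adjusted p = 2.66e-06). OPT3 in roots gave -0.41 ± 0.17 (adjusted p = 0.125). In bulk tissue, fewer cells of a type and less RNA per cell cannot be told apart. Every opt3-2 replicate carried runs 1, 2 and 3, while Columbia-0 replicates carried runs 2, 3 and 4 or runs 5, 6 and 7. No set of runs was common to both genotypes, so run set and genotype cannot be told apart in any comparison between lines.

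The strip genes were root genes in these libraries, with the exception of ESB1. On the scale of CPM per kilobase of exon, which allows genes to be compared with each other, CASP1 was highest in Columbia-0 roots at 90.9 ± 18.1 (SD, n = 3). PER64 followed at 41.1 ± 8.59 and CASP2 at 31.2 ± 6.50, and the replicates of these 2 genes overlapped. CASP4 at 13.6 ± 3.53, SGN3 at 11.0 ± 1.74 and MYB36 at 9.63 ± 1.18 were lower, each overlapping its neighbour in this order. CASP5 was much lower at 2.59 ± 0.881, and ESB1 was lowest at 0.307 ± 0.0248 CPM per kilobase. The opt3-2 roots had the same order except that MYB36 (9.62 ± 2.64) came before SGN3 (8.01 ± 1.84), 2 genes whose replicates overlapped.

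In leaves most of these genes were at or near 0. CASP5 had 0 reads in all 6 leaf replicates against 54 to 117 reads in the root replicates. The ratio of its root to its leaf level was at least 53.8-fold in Columbia-0 and at least 80.1-fold in opt3-2, computed against a floor of 3 reads over the leaf group. CASP1 had 0 to 5 reads per leaf replicate against 2014 to 3734 per root replicate. MYB36 had 2 leaf reads in Columbia-0 and 3 in opt3-2, and CASP2 and CASP4 had 11 to 17 leaf reads per genotype. These values show that the scaffold genes and their regulator were nearly absent from the leaf libraries in both genotypes.

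PER64 and SGN3 were the members with clear leaf levels. SGN3 was 9.39 times higher in roots than in leaves in Columbia-0 (8.43 to 10.5, counting error) and 15.6 times higher in opt3-2 (13.5 to 18.0). PER64 was 3.07 times higher in roots in Columbia-0 (2.88 to 3.28) and 11.1 times higher in opt3-2 (10.02 to 12.3). All of these intervals leave out the spread among replicates. Over 20 settings the log2 fold change of PER64 in Columbia-0, leaf against root, ran from -1.78 to -1.30. Against the roots of the same genotype, 8 of 9 members were called lower in leaves in Columbia-0, where 41.2% of all genes tested were, and 8 of 9 in opt3-2, where 40.4% were. The scaffold genes and MYB36 passed the filter on low counts through their root reads, so they had to differ between the organs, and these counts are a description of where the genes are read. ESB1 was the member not called, with -0.87 ± 0.51 in Columbia-0 (adjusted p = 0.138) and 0.50 ± 0.48 in opt3-2 (adjusted p = 0.347). Without Columbia-0 leaf replicate 2, which had 13 of the 20 ESB1 reads of that group, the Columbia-0 value was -1.75 (adjusted p = 0.0123).

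**Figure D2:**
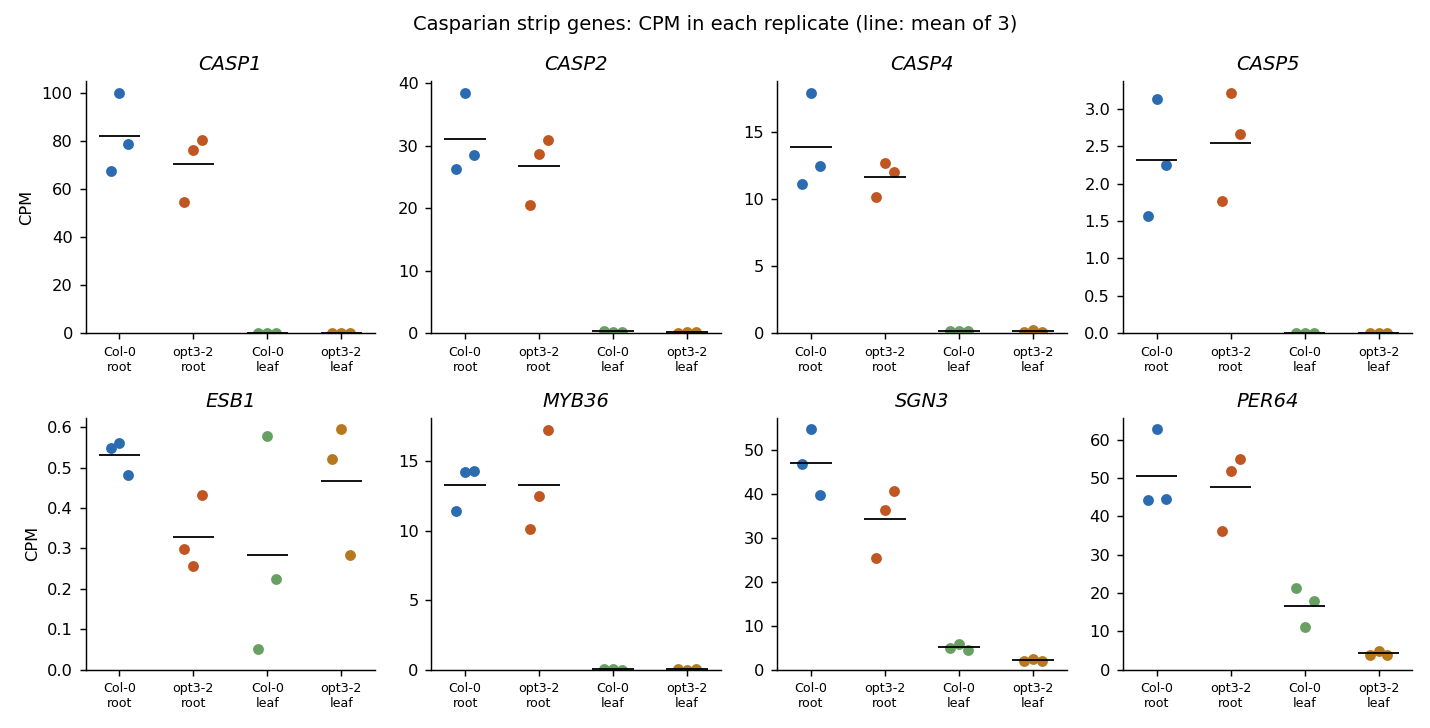
CPM of each of 8 strip genes in the 3 replicates of the 4 groups (points) with the group mean (line), on axes that start at 0 and differ between genes. The CASP genes and MYB36 are near 0 in all 6 leaf replicates, and PER64 and SGN3 are lower in opt3-2 leaves than in Columbia-0 leaves.

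Between opt3-2 and Columbia-0 roots, the contrast in which a root barrier gene can be compared, no strip gene was called. Of the members, 0 of 9 rose and 0 fell, where 8.28% of all genes tested rose and 7.28% fell (15.6% in either direction). At an unadjusted p under 0.05 there was 1 member, SGN3. DESeq2 called 0 members, and limma voom called 1, SGN3. The log2 fold change was below 0 for 8 of 9 members with a median of -0.22, beside a median of -0.000593 over all genes tested. Over all genes tested, 10859 of 21692 were below 0. MYB36, 1 of these 8 members, was below 0 in only 8 of 21 settings. Leaving out Columbia-0 root replicate 2, or leaving out opt3-2 root replicate 1, also gave 0 called members. The median was -0.04 with 6 of 9 below 0 without Columbia-0 root replicate 2, -0.07 with 6 of 9 without opt3-2 root replicate 1, and -0.35 with 9 of 9 without Columbia-0 root replicate 1.

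The receptor kinase SGN3 had 46.9, 54.8 and 39.9 CPM in the 3 Columbia-0 roots and 25.5, 36.4 and 40.8 CPM in the opt3-2 roots. Columbia-0 replicate 3 lay within the range of opt3-2, so the groups overlapped slightly. The difference of -0.46 ± 0.16 (95% interval -0.82 to -0.10) gave an adjusted p of 0.0798 and was not called. It passed under limma voom (-0.49, adjusted p = 0.0474) and without opt3-2 root replicate 3 (-0.61, adjusted p = 0.0229), and over all 21 settings the adjusted p ran from 0.0229 to 0.271 with a value below 0 in each. Its smallest value was -0.29, without opt3-2 root replicate 1. AT4G20150, the gene that overlaps the end of SGN3 on the other strand, rose in opt3-2 roots by 0.30 ± 0.09 (adjusted p = 0.0372). That call held in 11 of 21 settings. It was lost with the replicate block (0.30, adjusted p = 0.0546), a fit of the root groups alone, upper-quartile factors and single runs, and without any 1 of the Columbia-0 root replicates, opt3-2 root replicate 1 or 2 or opt3-2 leaf replicate 2, with adjusted p up to 0.133.

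MYB36, the regulator of the scaffold genes, had 11.4, 14.2 and 14.3 CPM in Columbia-0 roots and 10.1, 12.5 and 17.3 CPM in opt3-2 roots. The opt3-2 replicates spanned the whole range of Columbia-0. Its difference was -0.003 ± 0.20 with a 95% interval of -0.44 to 0.44 (adjusted p = 0.997), so changes beyond about this size in either direction lie outside the interval, and smaller ones were not detectable with this spread.

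CASP1, the most abundant scaffold gene, had 67.6, 99.9 and 78.9 CPM in Columbia-0 roots and 54.5, 76.2 and 80.5 CPM in opt3-2 roots. Here opt3-2 replicate 1 was the lowest of the 6 libraries and Columbia-0 replicate 2 the highest, and the other 4 lay together. The difference was -0.22 ± 0.19 (interval -0.64 to 0.20, adjusted p = 0.478). CASP2 had 26.3, 38.4 and 28.6 CPM in Columbia-0 and 20.5, 28.7 and 30.9 CPM in opt3-2, a difference of -0.22 ± 0.18 (adjusted p = 0.456). The lowest library and the highest library of CASP1 were also those of CASP2.

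CASP4 had 11.2, 17.9 and 12.5 CPM in Columbia-0 roots and 10.2, 12.7 and 12.05 CPM in opt3-2 roots (-0.25 ± 0.17, adjusted p = 0.367). Columbia-0 replicate 2 stood above the other 5 libraries for this gene. CASP5 had 1.56, 3.13 and 2.25 CPM in Columbia-0 and 1.76, 3.21 and 2.66 CPM in opt3-2 (0.13 ± 0.32, interval -0.62 to 0.87, adjusted p = 0.837). With 54 to 117 reads per replicate, CASP5 was the least precisely measured scaffold gene. Without Columbia-0 root replicate 2 the CASP1 value was -0.06, and without opt3-2 root replicate 1 it was -0.07, smaller in size than with all 6 libraries.

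Of the wall proteins, the peroxidase PER64 had 44.3, 62.8 and 44.6 CPM in Columbia-0 roots and 36.1, 51.9 and 55.0 CPM in opt3-2 roots, with overlapping groups and a difference of -0.09 ± 0.22 (interval -0.58 to 0.40, adjusted p = 0.835). ESB1 had 0.550, 0.562 and 0.482 CPM in Columbia-0 and 0.298, 0.257 and 0.433 CPM in opt3-2. It was the 1 member whose root replicates did not overlap, where 31.5% of all genes tested had replicates that did not. Its difference of -0.69 ± 0.46 had a wide interval from -1.71 to 0.33 (adjusted p = 0.357), since it rested on 55 reads in Columbia-0 and 33 in opt3-2.

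**Figure D3:**
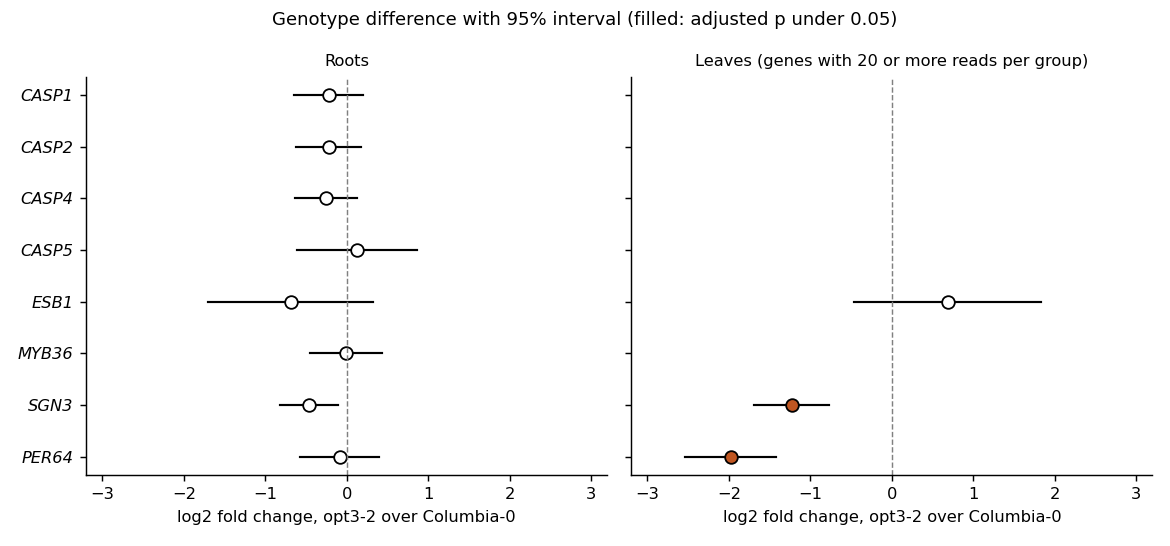
Log2 fold change of opt3-2 over Columbia-0 for 8 strip genes in roots (left) and, for the 3 members with at least 20 reads in each leaf group, in leaves (right), with 95% intervals; filled points passed an adjusted p of 0.05. No root point is filled, and the leaf points of SGN3 and PER64 lie at -1.23 and -1.98.

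The strip genes varied together among the root libraries without separating by genotype. Their summed level was 230, 320 and 244 CPM in Columbia-0 roots and 174, 242 and 263 CPM in opt3-2 roots, so the lowest and the highest library belong to different genotypes and the other 4 overlap. Relative to each gene's own mean over the 6 libraries on the log2 scale, the mean of the 9 members was 0.39 in Columbia-0 replicate 2 and -0.44 in opt3-2 replicate 1, and it lay between -0.09 and 0.13 in the other 4 libraries. Shares of CASP1 were taken on the scale of CPM per kilobase of exon. CASP2 stood at 32.9% to 35.3% of CASP1 in all 6 libraries and CASP4 at 13.3% to 16.6%. CASP5, with the fewest reads of the scaffold genes, ranged from 2.34% to 4.26%. PER64 stood at 41.6% to 50.1% of CASP1, SGN3 at 9.89% to 14.7% and MYB36 at 9.31% to 14.0%.

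As a description over the 6 root libraries, which come from 2 genotypes and share their depth and composition within a library, the log2 CPM of CASP2 followed the mean of the other 8 members with r = 0.995. CASP1 did so with r = 0.986 and PER64 with 0.929. CASP4 (0.868), SGN3 (0.841) and MYB36 (0.717) followed less closely. The genes with the fewest reads, CASP5 (0.578) and ESB1 (0.473), were the least alike. Among the pairs, CASP1 and CASP2 had the highest r, 0.992.

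**Figure D4:**
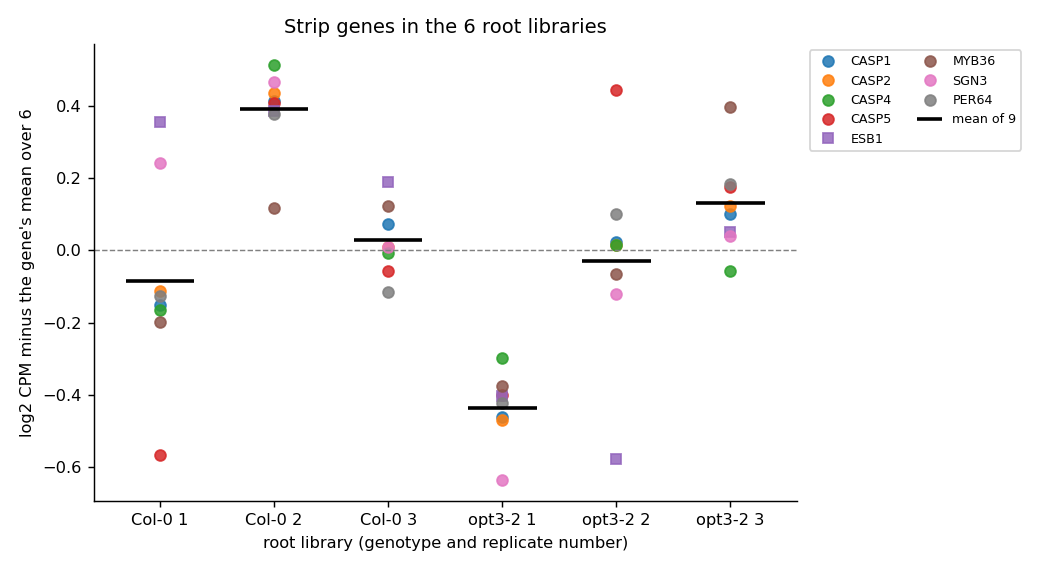
Log2 CPM of each of 8 strip genes minus that gene's mean over the 6 root libraries (points, ESB1 as squares) with the mean of all 9 members (bars). The mean is highest in Columbia-0 replicate 2 (0.39) and lowest in opt3-2 replicate 1 (-0.44).

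Among the 17668 genes that averaged at least 1 on the log2 CPM scale in roots, the 8 whose pattern over the 6 libraries was most like the mean of the members were AGP12, AT1G78860, AT1G22882, AT3G61680, OTP81, AT4G02110, AT4G15160 and AT3G10310, with r from 0.994 to 0.984. With 6 libraries and this many genes, high values of r are found by searching, and no test was attached to them. AGP12 encodes an arabinogalactan peptide and OTP81 an organellar RNA-binding protein of the pentatricopeptide repeat family. Of the other genes known for the strip wall, 12 of the 13 listed were measured well enough. Their median r with the members was 0.933, led by the dirigent genes DIR16 (0.979) and DIR24 (0.975) and the uclacyanin UCC1 (0.973). EXO70A1 (0.397), LAC3 (-0.042) and LOTR1 (-0.151) were the lowest of that list. Other barrier lists had lower medians, 0.551 for endodermis regulators, 0.286 for suberin synthesis, -0.182 for barrier signalling and -0.326 for monolignol synthesis. Of the marker lists of other cells, root hair markers (median r 0.889) and xylem markers (0.722) varied in the same direction as the members. Phloem markers (-0.834) and leaf markers (-0.932) varied in the opposite direction. All 4 leaf markers had reads in every root group, with a summed level of 163 to 271 CPM in Columbia-0 and 182 to 368 CPM in opt3-2, and root hair markers summed to 144 to 158 CPM and 86.4 to 149 CPM. Their part in the levels of the strip genes was not tested.

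Upstream stretches of CASP1 and CASP4 are shown because these scaffold genes varied together across the 6 root libraries (r = 0.917). Each line is the 150 bases before the annotated start in TAIR10.1 from RefSeq, written 5′ to 3′ along the gene's strand, with capitals for ACCNAC, the AC element that MYB factors of lignin genes are known to bind.
CASP1 (chr2:15160800-15160949, minus strand): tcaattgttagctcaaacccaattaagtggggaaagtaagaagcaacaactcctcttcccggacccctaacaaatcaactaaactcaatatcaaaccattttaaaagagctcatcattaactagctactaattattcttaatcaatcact
CASP4 (chr5:1876984-1877133, plus strand): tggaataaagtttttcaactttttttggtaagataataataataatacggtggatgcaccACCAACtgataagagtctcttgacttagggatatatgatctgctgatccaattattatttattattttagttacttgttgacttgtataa
Searched on both strands, ACCNAC was found in 1 of the 9 members, CASP4, and in 15.8% of 26709 gene starts of the annotation. TATAAA was found in 4 of 9 members, among them CASP2, CASP5 and PER64, and in 34.3% of all starts. Neither motif was common to the scaffold genes in this window.

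Genes that act around the strip were compared in roots from lists set for this report. Of 7 barrier signalling genes, 1 rose and 0 fell with a median of -0.09, where 8.28% of all genes tested rose and 7.28% fell. The gene of this list that rose was RBOHD (AT5G47910), a plasma membrane NADPH oxidase that produces superoxide. RBOHD had 86.4, 77.2 and 158 CPM in Columbia-0 roots and 211, 266 and 618 CPM in opt3-2 roots, a log2 fold change of 1.77 ± 0.39 (adjusted p = 0.0104). The groups did not overlap, where 31.5% of all genes tested had root replicates that did not. A fit of the 2 root groups alone gave 1.76 with an adjusted p of 0.0636. RBOHF, the other NADPH oxidase of this list, was not called, at 94.7 ± 6.67 CPM in Columbia-0 roots and 85.5 ± 19.4 CPM in opt3-2 roots. It was called lower in 1 of 21 settings, without opt3-2 root replicate 3 (-0.34, adjusted p = 0.0406). CIF2 (AT4G34600), which encodes a peptide ligand of SGN3, was not called (0.37 ± 0.18, adjusted p = 0.198), but it was without opt3-2 root replicate 3 (0.56, adjusted p = 0.0138). SGN1, a kinase downstream of SGN3, was not called (-0.27 ± 0.14, adjusted p = 0.233). It was called lower in 3 of 21 settings, with replicate number as a block (-0.27, adjusted p = 0.0196), under DESeq2 (adjusted p = 0.0438) and under limma voom (adjusted p = 0.0457).

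Other proteins of the strip wall gave 0 rises and 0 falls among 12 tested genes, where 8.28% of all genes tested rose and 7.28% fell. There were 0 at an unadjusted p under 0.05 and 0 under DESeq2, and the median was -0.11. DIR25 had too few reads to test. The most abundant were the peroxidase PER3 (AT1G05260) at -0.17 ± 0.12 (adjusted p = 0.401) and EXO70A1 (AT5G03540), an exocyst subunit that positions the CASP domain, at 0.08 ± 0.07 (adjusted p = 0.460). As with the members, no gene of this list passed.

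Of 9 endodermis regulators, 1 rose, 1 fell and 7 were not called, with a median of -0.10. These counts are near the shares over all genes tested, 8.28% higher and 7.28% lower. Of the 7, SCR was called lower in 2 of 21 settings. These were upper-quartile factors (-0.24, adjusted p = 0.0432) and the fit without opt3-2 root replicate 3 (-0.29, adjusted p = 0.0295). HSFB4 was called higher in 1 setting, without opt3-2 root replicate 3 (0.40, adjusted p = 0.0232). MYB87 (AT4G37780), a MYB factor related to MYB36, rose from 2.55, 2.17 and 3.60 CPM to 5.06, 3.79 and 6.02 CPM, by 0.84 ± 0.24 (adjusted p = 0.0371). MGP (AT1G03840), a zinc finger protein and target of SHR and SCR, fell from 15.3, 18.3 and 16.0 CPM to 11.4, 13.7 and 10.6 CPM, by 0.47 on the log2 scale (SE 0.14, adjusted p = 0.0411). Neither pair of groups overlapped, where 31.5% of all genes tested had root replicates that did not. Both calls were near the threshold: MYB87 was lost without Columbia-0 root replicate 1 or 2, opt3-2 root replicate 1 or 3, Columbia-0 leaf replicate 3 or opt3-2 leaf replicate 1, and in a fit of the root groups alone, with adjusted p up to 0.141. MGP was lost without any 1 of the Columbia-0 root replicates, opt3-2 root replicate 1 or 3, Columbia-0 leaf replicate 2 or opt3-2 leaf replicate 1 or 2, and with the lowest run of each replicate, with adjusted p up to 0.161.

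Monolignol synthesis, the pathway that makes the precursors of lignin, differed strongly. Of 14 genes, 9 rose and 1 fell, with a median of 0.90, where 8.28% of all genes tested rose and 7.28% fell. PAL1 (AT2G37040) and PAL2 (AT3G53260), which encode the entry enzyme phenylalanine ammonia-lyase, rose by 2.30 ± 0.15 (adjusted p = 1.08e-06) and 2.62 ± 0.16 (adjusted p = 6.23e-07). 4CL1 (AT1G51680) and 4CL2 (AT3G21240), the ligases that activate the acids, rose by 2.09 ± 0.15 (adjusted p = 2.94e-06) and 2.52 ± 0.15 (adjusted p = 6.11e-07). PAL1 had 498, 476 and 491 CPM in Columbia-0 roots and 1834, 2506 and 2898 CPM in opt3-2 roots. The 1 gene that fell, named after its value was seen, was F5H1 (AT4G36220), the hydroxylase that leads to syringyl units, from 79.1 ± 11.0 to 42.0 ± 9.90 CPM, by 0.91 on the log2 scale (SE 0.15, adjusted p = 0.00205). Summed over the list, Columbia-0 roots had 3517 to 3785 CPM and opt3-2 roots 8200 to 11732 CPM. These enzymes also supply precursors outside the endodermis, and in which cells they were read cannot be told from bulk roots.

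Suberin synthesis genes, whose product coats endodermal cells after the strip has formed, gave 0 rises and 1 fall among 6. For this and the following root lists, the shares over all genes tested were 8.28% higher and 7.28% lower. ASFT (AT5G41040), a feruloyl transferase of suberin, fell from 124 ± 5.95 to 87.0 ± 5.46 CPM, by 0.51 on the log2 scale (SE 0.13, adjusted p = 0.0242). Leaving out Columbia-0 root replicate 1, Columbia-0 root replicate 2 or opt3-2 root replicate 1 ended that call (adjusted p 0.0573 to 0.0747). CYP86A1 (AT5G58860), a fatty acid hydroxylase of the same pathway, was at -0.21 ± 0.16 (adjusted p = 0.418). CYP86B1, another hydroxylase of the pathway, was called lower in 5 of 21 settings, which were the replicate block (-0.48, adjusted p = 0.0204), DESeq2 (adjusted p = 0.00333), limma voom (0.00555), a fit of the root groups alone (0.0193) and the fit without Columbia-0 leaf replicate 2 (0.0101). Of the marker lists of other root cells, root hair markers gave 0 of 4 calls (PRP3 -0.60, adjusted p = 0.111; LRX1 -0.26, adjusted p = 0.5002). PRP3 was called lower in 5 of 21 settings, namely the replicate block (-0.63, adjusted p = 0.0134), limma voom (0.0130), the lowest run of each replicate (0.0341), and without opt3-2 root replicate 3 (0.0173) or opt3-2 leaf replicate 3 (0.0386). Xylem markers gave 0 of 5 calls, with a median of -0.43 (XCP1 -0.21, adjusted p = 0.261; IRX5 -0.45, adjusted p = 0.0561). Up to 2 of them were called lower in other settings. IRX5 was called under upper-quartile factors (adjusted p = 0.0352), DESeq2 (0.0341) and limma voom (0.0384), and without opt3-2 root replicate 3 (0.0149) or opt3-2 leaf replicate 2 (0.0455). IRX1 was called under limma voom (0.0468) and without opt3-2 root replicate 3 (0.00952). Of 3 phloem markers, SUC2 rose by 0.47 ± 0.08 (adjusted p = 0.00252) and SEOR1 was at 0.15 (adjusted p = 0.415), and leaf markers gave 0 of 4 calls (LHCB1.3 0.32, adjusted p = 0.637; LHCA4 0.33, adjusted p = 0.272), although LHCA4 was called higher without opt3-2 root replicate 3 (0.52, adjusted p = 0.0382).

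**Figure D5:**
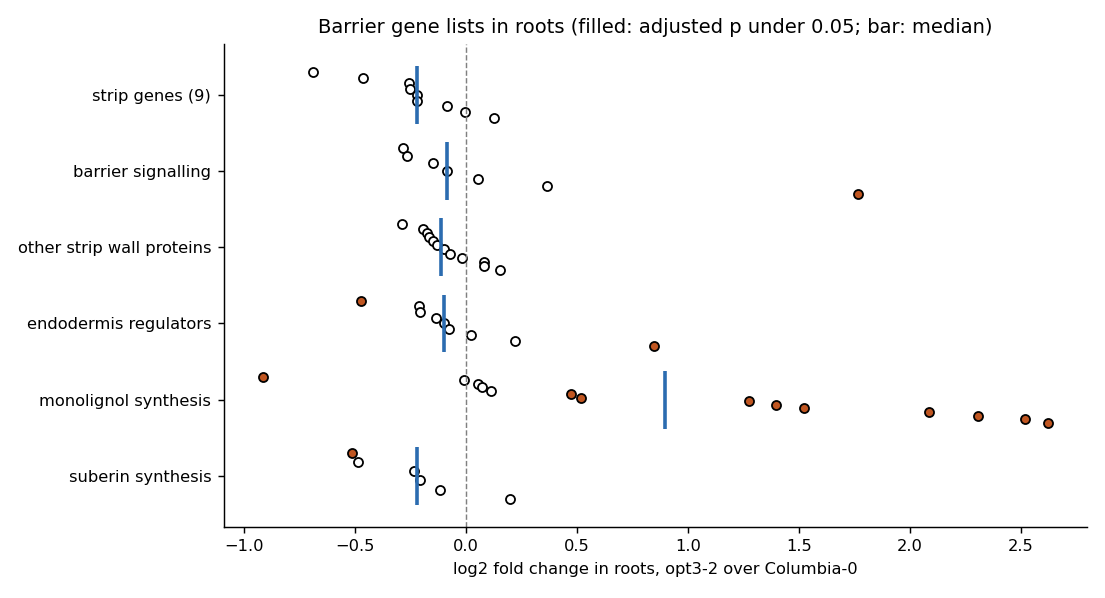
Log2 fold change of opt3-2 over Columbia-0 in roots for each tested gene of the strip genes and 5 other barrier lists (points, filled where the adjusted p is under 0.05), with the median of each list (bar). The monolignol list has its median at 0.90 and 10 filled points, and the 9 strip genes have none, with a median of -0.22.

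In leaves, where most members were hardly read, PER64 and SGN3 both fell in opt3-2. They were 2 of 9 members called lower, with 0 called higher, and 2 of the 3 that had at least 20 reads in each leaf group, where 12.6% of all genes tested fell and 15.4% rose. PER64 had 21.3, 11.0 and 17.9 CPM in Columbia-0 leaves and 3.93, 4.86 and 3.93 CPM in opt3-2 leaves, a log2 fold change of -1.98 ± 0.26 (interval -2.54 to -1.42, adjusted p = 2.23e-04). The lowest Columbia-0 leaf was above the highest opt3-2 leaf by a wide margin. SGN3 had 4.99, 5.79 and 4.54 CPM in Columbia-0 leaves and 2.06, 2.48 and 1.98 CPM in opt3-2 leaves, a log2 fold change of -1.23 ± 0.21 (interval -1.69 to -0.77, adjusted p = 0.00128). These groups did not overlap either, where 49.9% of all genes tested had leaf replicates that did not.

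Both leaf calls were made under all 20 settings, with adjusted p up to 0.00201 for PER64 and 0.0379 for SGN3. ESB1 had 1, 13 and 6 reads in Columbia-0 leaves and 17, 19 and 9 in opt3-2 leaves, and its difference of 0.69 ± 0.52 was not called (adjusted p = 0.370). The genes that overlap the called members on the opposite strand were not called in leaves, with AT4G20150 at 0.13 ± 0.09 (adjusted p = 0.304) and AT5G42190 at -0.04 ± 0.07 (adjusted p = 0.707). The leaf samples also differed in vascular and suberin genes. Of these lists, 4 of 5 xylem markers, 2 of 3 phloem markers and 4 of 6 suberin genes fell, and none rose. Over all genes tested in leaves, 12.6% fell and 15.4% rose. Over the 20 settings 3 to 4 xylem markers, 2 phloem markers and 3 to 5 suberin genes fell. Some suberin genes had few leaf reads, CYP86A1 with 74 in Columbia-0 and 19 in opt3-2, and CYP86B1 with 39 and 20. Xylem markers summed to 111 to 129 CPM in Columbia-0 leaves and 55.0 to 79.4 CPM in opt3-2 leaves, phloem markers to 400 to 436 CPM and 254 to 295 CPM, and suberin genes to 9.12 to 11.1 CPM and 4.24 to 5.21 CPM, with no list gene at 0. Their part in the PER64 and SGN3 values was not tested.

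The genotype effect of PER64 was larger in leaves than in roots. Subtracting the log2 fold change in roots from that in leaves gave -1.89 ± 0.34 (adjusted p = 0.00331), and PER64 was the 1 of 9 members called for this difference, where 16.1% of all genes tested were. The difference for SGN3 was -0.76 ± 0.27 (adjusted p = 0.0738). It was called by DESeq2 (-0.82, adjusted p = 0.0305) and without opt3-2 root replicate 1 (-0.94, adjusted p = 0.0125), so a difference between the organs in the SGN3 effect rested on the setting. ESB1, at 1.38 ± 0.70 (adjusted p = 0.213), was called without Columbia-0 leaf replicate 2 (2.27, adjusted p = 0.0497).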

How the data were processed

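The submitters' processing notes name TopHat2, edgeR and the TAIR10 build for these Illumina TruSeq libraries. The values deposited by the authors are raw read counts, whole numbers without normalization, per the file headers. The counting program and strandedness were not given in the sources used here. Of 72 columns, 36 match samples and 36 were not used. The 3 runs of a replicate differed by little more than sampling noise (chi-square per degree of freedom 1.02 to 1.07, against 3.26 to 77.8 between replicates) and were summed. Whether replicates came from separate cultures is not stated, and p-values then reflect the spread among samples, which may be technical.

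The main test was edgeR 4.0.16 (R 4.3.3), quasi-likelihood F with TMM factors and filterByExpr, in a model of the 4 groups with 8 residual degrees of freedom, adjusted by Benjamini-Hochberg over 21692 genes. The SE was derived from F and is approximate for genes with few reads. Alternatives were other size factors, no filter, DESeq2 1.42.0, limma voom 3.58.1, a fit of 2 groups alone, a replicate block, single runs and leaving out each replicate. Steps were tested on simulated data. Deviations of same-numbered root samples of the 2 genotypes had correlations of 0.189 to 0.579. Differently numbered root samples had -0.633 to 0.322, so these ranges overlapped and a pairing of the roots by number is uncertain. In leaves the correlations were -0.05 to 0.09 for same numbers and -0.08 to 0.09 for different numbers. The main model held no replicate term. Exact intervals and floors cover counting error only. Sequences and coordinates are RefSeq TAIR10.1, in which 28001 of 28775 identifiers were found, and coding sequences were aligned with MAFFT 7.526 and pairwise with Biopython 1.88. All 9 members were tested and counted, 1 of them is not reported here by name, with up to 4 called genes of every other list by adjusted p, or the most abundant 2 where fewer were called. The members, lists and naming rule were chosen with earlier results of these data known.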

Additional observations from a re-analysis of the deposited data

Results flagged for a closer look

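The genotype effect of PER64 differed between the organs by a test of the difference itself. The log2 effect in leaves minus that in roots was -1.89 ± 0.34 (edgeR's quasi-likelihood test, adjusted p = 0.00331), with -1.98 in leaves and -0.09 in roots. All 3 opt3-2 leaf replicates were below all 3 Columbia-0 leaf replicates, and the root replicates overlapped.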

How the results depend on the processing

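In roots, the count of called members was 0 in 19 of 21 settings and 1 under limma voom and without opt3-2 root replicate 3, SGN3 in both cases, so leaving out 1 replicate gave 0 to 1. Over all genes, 3377 were called, against 1973 in a fit of 2 groups alone and 2074 to 4231 when 1 replicate was left out (2237 for Columbia-0 root replicate 1, 2074 for replicate 2 of that group). The members called lower in leaves stayed at 2 in all 20 settings, and those called in the comparison between organs within a genotype at 8, or 9 in Columbia-0 without Columbia-0 leaf replicate 2. For the difference of effects between organs the count was 1, and 2 under DESeq2, without opt3-2 root replicate 1 or without Columbia-0 leaf replicate 2 (range 1 to 2). The sign of MYB36 in roots turned to 0.00652 with RLE size factors, 0.0104 with no filter and 0.00702 with DESeq2. With 1 replicate left out, MYB36 ran from -0.24 to 0.16, PER64 from -0.20 to 0.10 and CASP5 from -0.092 to 0.41. None of these was called in any setting, and the cause was not tested. With the replicate block, 3563 genes and 0 members were called in roots (SGN3 -0.48, adjusted p = 0.0504), and the block changed no member's call in any comparison. Upper-quartile factors moved the median of all genes in the leaf against root comparison to -0.25 in Columbia-0 and -0.23 in opt3-2, with 38.4% and 39.5% of calls higher in leaf instead of 46.8% and 48.8%, and called the same number of members. Precision of ESB1 was limited by 8 to 21 reads per root replicate, and leaf values of the CASP genes and MYB36 by at most 8 reads.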
